A study of Mus musculus with 2 samples.

Results

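The 6 genes described here, Gucy1a1, Gucy1b1, Prkg1, Pde5a, Nos3 and Kcnn3, were taken by symbol from the 31054 features counted in single cells of the mouse bladder, and each symbol matched 1 feature. They make up a route for nitric oxide and a potassium channel of the bladder interstitium. They were selected on their values in the fibroblast-like cells of these libraries, where Gucy1a1 and Kcnn3 were among the genes that differed most between cells with and without a red reporter of p16, so these differences are given as a description.

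In the nitric oxide route, an endothelial enzyme (Nos3) makes the gas, which binds the haem of soluble guanylate cyclase, a dimer of an alpha subunit (Gucy1a1) and a beta subunit (Gucy1b1). The cyclase makes cGMP, which activates a protein kinase (Prkg1) that relaxes smooth muscle, and a phosphodiesterase (Pde5a) breaks cGMP down again. Kcnn3 encodes SK3, a small conductance channel opened by intracellular calcium. In the bladder wall, interstitial cells marked by Pdgfra are known for SK3 currents that follow purinergic signals, and for dampening the excitability of the detrusor.

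Both libraries came from the bladder of 1 male mouse aged 25 months with the genotype p16-CreERT2/R26-LSL-tdTomato, in which tamoxifen lets a Cre recombinase driven by p16 (Cdkn2a), an inhibitor of the cell cycle used as a marker of senescence, switch on a red reporter. Tamoxifen was injected on 5 consecutive days and tissue was taken 2 weeks later. Dissociated cells that were negative for CD45, a leukocyte antigen, and for the dead-cell dye DAPI were sorted by fluorescence into a tdTomato-negative library (Tom-) and a tdTomato-positive library (Tom+). Both groups therefore shared the animal, the genotype and the tamoxifen, and the reporter records Cre activity in the time after tamoxifen and not the p16 level at harvest. With 1 library per group no test between groups was possible, no difference has a replicate check, and each 95% interval below (in parentheses) covers counting error only.

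The Tom- library held 13551 barcodes and 197232860 UMIs (unique molecules) and the Tom+ library 2783 barcodes and 34455896 UMIs, of which 9905 and 1883 cells were used after filtering and removal of predicted doublets. tdTomato stood at 37.4 and 1214 UMIs per 1000000 (CPM). The libraries shared 966 barcodes, carried by 660 of the used Tom- cells and 346 of the used Tom+ cells. In fibroblast-like cells, the class on which most results rest, 185 of 4051 Tom- cells and 101 of 730 Tom+ cells had such a barcode, and values without them are given beside the main ones. These cells held a median of 8 of 9 fibroblast markers in both libraries, at median depths of 10889 UMIs in Tom- and 7520.5 UMIs in Tom+. Summed erythroid markers were at 486 CPM in Tom- against 46.1 CPM in Tom+ fibroblast-like cells, and summed adipocyte markers at 419 and 103 CPM. Of the 7 adipocyte markers Cidec and Lep were at 0 in both libraries, Adipoq was at 1 UMI in Tom- and 0 in Tom+, and Car3 alone gave 400 and 84.1 CPM. The part of these transcripts in the results below was not tested.

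Gucy1a1 (ENSMUSG00000033910) lies on chromosome 3 of GRCm38 at chr3:82092427-82145789 on the minus strand, and Gucy1b1 (ENSMUSG00000028005) at chr3:82032006-82074689 on the same strand, 17737 bases away. Kcnn3 (ENSMUSG00000000794) lies at chr3:89520164-89675132 on the plus strand and Pde5a (ENSMUSG00000053965) at chr3:122728947-122859374 on the plus strand, so that 4 of the 6 genes are on chromosome 3. Prkg1 (ENSMUSG00000052920) spans 1200545 bases at chr19:30564489-31765033 on the minus strand, and Nos3 (ENSMUSG00000028978) 19665 bases at chr5:24364810-24384474 on the plus strand. For genes as long as Prkg1, whether reads in introns were counted bears on the level, and this is not given in the sources used here.

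The promoters of the 3 genes that were higher together in Tom+ fibroblast-like cells are shown so that they can be compared. They are the 250 bases before the RefSeq start (GRCm38.p6, 5′ to 3′ on the gene's strand), less any base inside the GENCODE M21 gene model. Capitals mark CCAAT and GGGCGG on either strand (ATTGG is CCAAT read on the other strand).
Gucy1a1, chr3:82145790-82145900, minus strand: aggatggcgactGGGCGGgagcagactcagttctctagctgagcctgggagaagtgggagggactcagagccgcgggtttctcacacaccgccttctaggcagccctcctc
Gucy1b1, chr3:82074712-82074961, minus strand: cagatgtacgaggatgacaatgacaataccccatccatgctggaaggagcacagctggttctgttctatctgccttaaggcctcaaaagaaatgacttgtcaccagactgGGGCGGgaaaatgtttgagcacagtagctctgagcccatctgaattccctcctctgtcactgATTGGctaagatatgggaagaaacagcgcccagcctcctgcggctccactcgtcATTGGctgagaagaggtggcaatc
Kcnn3, chr3:89519914-89520163, plus strand: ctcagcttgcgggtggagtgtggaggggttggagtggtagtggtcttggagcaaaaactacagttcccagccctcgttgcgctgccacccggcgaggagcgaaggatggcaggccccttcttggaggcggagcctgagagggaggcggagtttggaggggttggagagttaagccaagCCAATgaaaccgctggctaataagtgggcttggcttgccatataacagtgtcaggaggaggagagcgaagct

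None of the 4 motifs searched was common to the 3 windows. CCAAT was found 2 times before Gucy1b1, 78 and 24 bases before the start and both on the opposite strand, and 1 time before Kcnn3, 72 bases before the start. It was in 33.8% of the 32851 RefSeq promoter windows of the same 250 bases. GGGCGG stood 238 bases before the start of Gucy1a1 and 140 bases before that of Gucy1b1, and was in 32.7% of all windows. TATAAA (12.4% of all windows) and TGANTCA (6.75%) were in none of the 3 windows on either strand, and of the 2 starts listed for Gucy1a1 the more upstream one was searched. Such matches of letters are a description of the windows.

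Among cell classes, the cyclase subunits were highest in mural-like cells (smooth muscle or pericyte markers) and in lymphatic endothelial-like cells, where Gucy1a1 and Gucy1b1 stood together. Gucy1a1 was at 567 CPM (506 to 634) in the 49 Tom- mural-like cells, and Gucy1b1 at 216 CPM (179 to 259). The Tom+ library held only 1 mural-like cell, so this class has no Tom+ value.

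In lymphatic endothelial-like cells (179 Tom- and 75 Tom+) Gucy1a1 was at 267 CPM (238 to 299) in Tom- against 233 CPM (187 to 288) in Tom+, and Gucy1b1 at 257 CPM (228 to 289) and 263 CPM (214 to 321). The intervals of the libraries overlap for both subunits. In endothelial-like cells of blood vessels (663 and 169 cells) Gucy1a1 was lower, at 36.5 CPM (31.5 to 42.2) in Tom- against 25.2 CPM (18.1 to 34.2) in Tom+.

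Mesothelial-like cells, the outer lining of the organ, held the alpha subunit almost without the beta subunit. Gucy1a1 was at 128 CPM in both libraries (122 to 134 in 672 Tom- cells, 115 to 142 in 139 Tom+ cells), from 1892 and 366 UMIs. Of these cells 4 Tom- and 51 Tom+ cells had a shared barcode, and without them 1889 and 133 Gucy1a1 UMIs were left. Gucy1b1 was at 1.35 CPM (0.827 to 2.09) and 1.05 CPM (0.217 to 3.07), from 20 and 3 UMIs. There were thus 94.6 Gucy1a1 UMIs (61.1 to 155) for each Gucy1b1 UMI in Tom- mesothelial-like cells, against 4.50 (4.03 to 5.04) in Tom- fibroblast-like, 2.62 (2.11 to 3.28) in Tom- mural-like and 1.04 (0.880 to 1.23) in Tom- lymphatic endothelial-like cells. The number of UMIs per transcript can differ between 2 genes, so this ratio is compared between classes only and is not a ratio of subunits. Of the Gucy1a1 UMIs in used Tom- cells, 31.7% came from mesothelial-like and 29.0% from fibroblast-like cells. The second alpha subunit gene, Gucy1a2, was at 0.284 CPM in mesothelial-like cells of both libraries together.

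Nos3, the source of nitric oxide in vessels, was an endothelial gene here. It was at 66.2 CPM (59.3 to 73.7) in Tom- against 57.8 CPM (46.7 to 70.7) in Tom+ endothelial-like cells of blood vessels, and at 56.0 CPM (42.9 to 71.7) and 59.7 CPM (37.4 to 90.4) in lymphatic endothelial-like cells. In fibroblast-like cells it was at 0.461 CPM (21 UMIs) in Tom- against 0.157 CPM (1 UMI) in Tom+, a ratio of 0.342 (0.00826 to 2.12). Levels in mesothelial-like and urothelial-like cells were 1.22 and 0.375 CPM in Tom-. The other synthases were nearly undetected in fibroblast-like cells, with 1 UMI of the neuronal gene Nos1 in Tom- and 0 in Tom+, and 0 UMIs of the inducible gene Nos2 in both.

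Prkg1, the cGMP kinase, was at 92.4 CPM (68.6 to 122) in Tom- mural-like cells, above its levels in the 5 other classes, which reached at most 22.4 CPM (18.5 to 26.9) in Tom- endothelial-like cells of blood vessels. In fibroblast-like cells it was at 14.02 CPM (12.95 to 15.1) in Tom- against 13.1 CPM (10.4 to 16.2) in Tom+. In urothelial-like cells there were 5 UMIs in Tom- and 0 in Tom+. The second cGMP kinase gene, Prkg2, was at 4.72 CPM in Tom- against 6.45 CPM in Tom+ fibroblast-like cells.

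Pde5a had a different distribution from the rest, with fibroblast-like cells second to mural-like cells (334 CPM, 288 to 387) and with a level in the urothelium. It was at 134 CPM (131 to 137) in Tom- against 124 CPM (116 to 133) in Tom+ fibroblast-like cells. Urothelial-like cells (1751 and 503) had 26.8 CPM (25.6 to 28.1) and 25.6 CPM (23.4 to 28.1), a ratio of 0.955 (0.861 to 1.06), which became 0.873 (0.774 to 0.983) without shared barcodes. Lymphatic endothelial-like cells had 7.22 CPM in Tom- (8 UMIs) against 2.71 CPM in Tom+ (1 UMI). In mesothelial-like cells it was 3.93 and 4.90 CPM.

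Kcnn3, the SK3 channel, was highest in lymphatic endothelial-like cells, at 136 CPM (115 to 160) in Tom- against 187 CPM (146 to 237) in Tom+, a ratio of 1.37 (1.02 to 1.84). Fibroblast-like cells followed with 19.1 CPM (17.8 to 20.4) in Tom- against 58.2 CPM (52.5 to 64.5) in Tom+. In the 49 mural-like cells no Kcnn3 UMI was found, which allows a level of up to 5.54 CPM when 3 UMIs stand for 0. In endothelial-like cells of blood vessels there were 36 UMIs in Tom- (7.07 CPM) and 0 in Tom+. Of these, 30 came from the cluster led by Esm1 and Gja4, with 280 Tom- and 31 Tom+ cells, and 2 from the cluster led by Selp and Ackr1, with 252 Tom- and 122 Tom+ cells. The other SK genes were sparse in fibroblast-like cells, with 93 and 12 UMIs of Kcnn1 and 3 and 1 UMIs of Kcnn2.

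**Figure D1:**
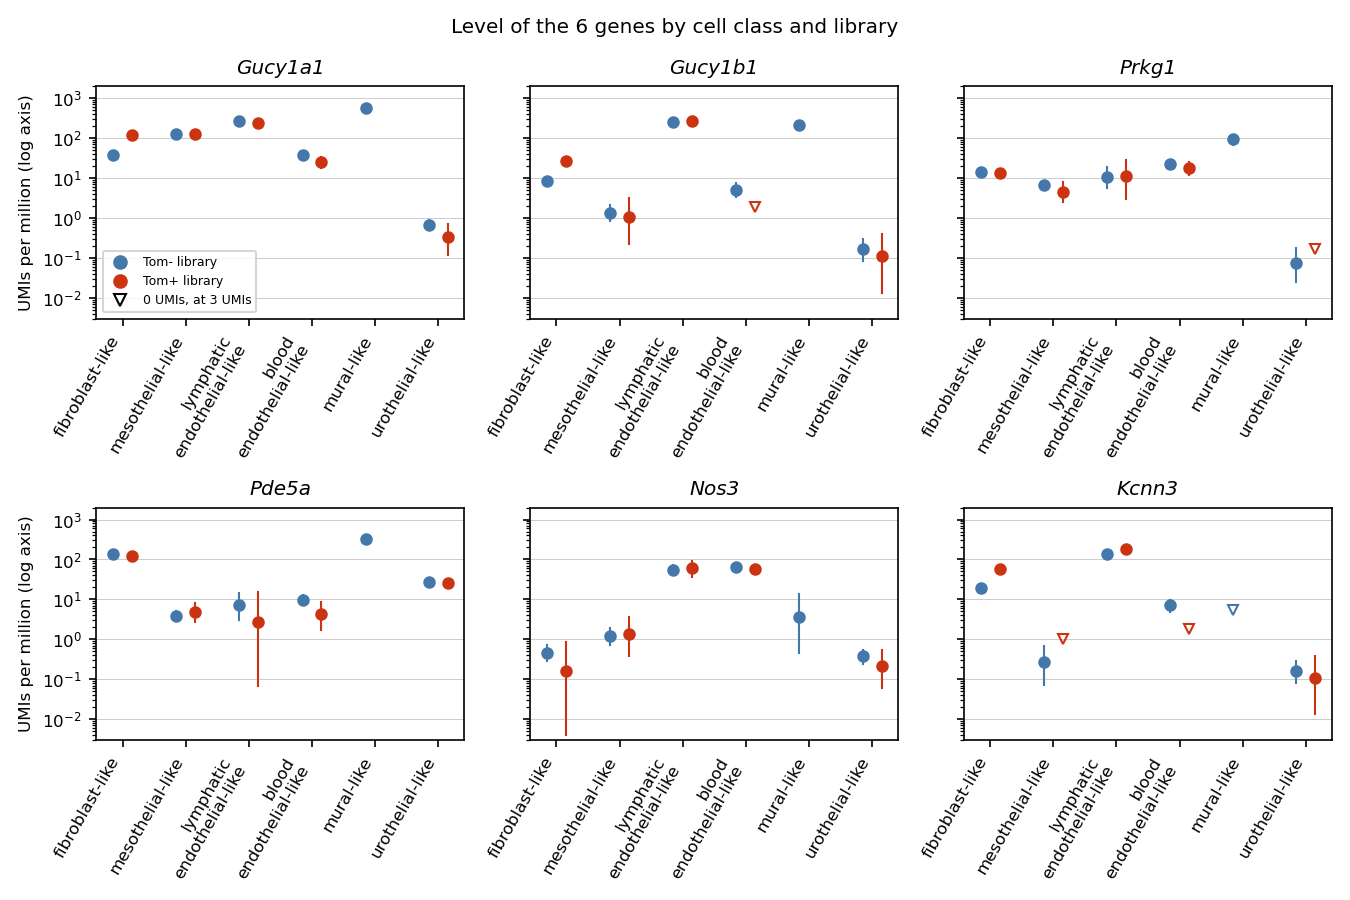
Level of each gene in CPM (log axis) by cell class, in the Tom- library (blue) and the Tom+ library (red). Points are sums over the cells of a class, vertical lines are exact Poisson 95% intervals for counting error only, and open triangles mark 0 UMIs, drawn at the level of 3 UMIs. The libraries separate most clearly for Gucy1a1, Gucy1b1 and Kcnn3 in fibroblast-like cells.

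In fibroblast-like cells 3 of the 6 genes were about 3 times higher in the Tom+ library, both cyclase subunits and the SK3 channel. Gucy1a1 was at 38.0 CPM (36.2 to 39.8) in Tom- against 118 CPM (109 to 126) in Tom+, from 1733 and 748 UMIs. The ratio was 3.10 (2.84 to 3.38), and 3.35 (3.07 to 3.66) without shared barcodes. Gucy1b1 was at 8.44 CPM (7.62 to 9.33) in Tom- against 25.8 CPM (22.0 to 30.1) in Tom+. Its ratio was 3.06 (2.53 to 3.68), and 3.31 (2.73 to 3.99) without shared barcodes. Kcnn3 had a ratio of 3.06 (2.70 to 3.45), and 3.34 (2.95 to 3.78) without them. The intervals of the libraries do not overlap for these 3 genes, whose choice used this contrast. How many of all measured genes had intervals apart was not counted.

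The kinase and the phosphodiesterase differed little. The ratio of Prkg1 was 0.932 (0.732 to 1.17). That of Pde5a was 0.928 (0.860 to 0.999), and 0.976 (0.904 to 1.05) without shared barcodes. The small Pde5a difference had no stable sign, since its log2 ratio of -0.11 became 0.16 when the libraries were clustered apart, 0.05 with predicted doublets kept and 0.02 with the class named from clusters. The sign of Prkg1 also turned, from -0.09 to 0.38, in cells thinned to 2000 UMIs. Only 95 of 3883 Tom- and 19 of 609 Tom+ cells held a Prkg1 UMI at that depth.

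Genes with 10 CPM or more in a library and 20 UMIs or more over both were counted as measured, and as higher or lower from 1.5 times on a log2 scale with 1 CPM added. Of the 8958 measured genes 138 were higher in Tom+ (1.54%) and 131 lower (1.46%). Of the 6 genes 5 were measured, of which 3 were higher and 0 lower, and the choice of the genes used this contrast. Their log2 ratios were 1.61 for Gucy1a1, 1.56 for Kcnn3 and 1.51 for Gucy1b1, with 6, 7 and 8 of the 8958 genes above them, and -0.09 and -0.11 for Prkg1 and Pde5a. The median of all measured genes was -0.00297.

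Outside fibroblast-like cells, 9 measured pairs of a gene and a class could be compared, of which 0 were higher and 0 lower by 1.5 times. In these classes the share of all measured genes that were higher or lower was 2.42% and 8.87% in endothelial-like cells of blood vessels, 8.68% and 12.6% in lymphatic endothelial-like cells, 2.26% and 1.38% in mesothelial-like cells, and 0.0395% and 0.356% in urothelial-like cells. The Gucy1a1 ratio was 1.001 (0.893 to 1.12) in mesothelial-like cells, and 0.815 (0.678 to 0.972) there without shared barcodes. It was 0.874 (0.679 to 1.11) in lymphatic endothelial-like cells. In endothelial-like cells of blood vessels it was 0.689 (0.479 to 0.971), and 0.523 (0.333 to 0.792) without shared barcodes. The sums there rested on few cells, with 186 Tom- UMIs in 72 cells (up to 25 in 1 cell) and 41 Tom+ UMIs in 13 cells (up to 12). By cluster, the ratio was 0.515 (0.324 to 0.793) in the Selp cluster (252 Tom- and 122 Tom+ cells) but 1.16 (0.573 to 2.15) in the Esm1 cluster (280 and 31 cells) and 0.908 (0.0955 to 4.39) in the Timp4 cluster (131 and 16 cells). Whether the fibroblast-like ratio differs from those of the other classes was not tested.

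The share of fibroblast-like cells with a UMI moved in the same direction as the level for the 3 genes. To set depth aside, cells were thinned to 5000 UMIs, which left 3320 Tom- and 477 Tom+ cells (731 and 253 were too shallow). Gucy1a1 was then found in 11.1% (10.0 to 12.2) of Tom- against 23.3% (19.5 to 27.3) of Tom+ cells, Gucy1b1 in 3.43% (2.84 to 4.11) and 10.7% (8.06 to 13.8), and Kcnn3 in 6.17% (5.38 to 7.05) and 16.6% (13.3 to 20.2). Without thinning the shares were 17.7% and 27.1% for Gucy1a1, 6.39% and 12.6% for Gucy1b1, and 11.2% and 19.6% for Kcnn3. Urothelial-like cells had at most 0.675 CPM of these transcripts and median depths of 37934 and 36671 UMIs. Thinned, they gave 0.118% and 0% for Gucy1a1, 0.118% and 0.409% for Gucy1b1 and 0.0592% and 0% for Kcnn3. Thinning took a larger part of their UMIs than in the shallower fibroblast-like cells, so these shares do not set a level of free RNA there. Pde5a was found in 44.4% (42.7 to 46.1) and 45.9% (41.4 to 50.5) of thinned fibroblast-like cells, and Prkg1 in 5.84% and 5.66%.

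Sub-clusters of the fibroblast cells, here called states, were made without the 6 genes, tdTomato, Cdkn2a and the other pathway genes, and each is named by its leading gene. The 3 genes were concentrated in the state led by Dner, Stc2 and Kcnn3, which also had Cxcl12 and C7 among its 10 leading genes. This Dner state made up 16.4% (15.4 to 17.4) of the 5419 Tom- and 33.96% (30.8 to 37.2) of the 857 Tom+ cells that passed the fibroblast gate, with 887 and 291 cells at median depths of 9023 and 6893 UMIs. Only 2 and 5 of them had a shared barcode. It held 21.9% of Tom- fibroblast-like cells but 57.6% of their Gucy1a1 UMIs, 57.1% of Gucy1b1 and 65.1% of Kcnn3. In Tom+ it held 39.9% of the cells, with 86.5% of Gucy1a1, 94.5% of Gucy1b1 and 90.8% of Kcnn3 UMIs. For Pde5a the shares were 16.2% and 42.9%, and for Prkg1 12.8% and 25.3%.

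Within the Dner state the 3 genes were again higher in Tom+. Gucy1a1 was at 128 CPM (120 to 136) in Tom- against 287 CPM (265 to 310) in Tom+, a ratio of 2.24 (2.03 to 2.48). Gucy1b1 was at 28.2 CPM (24.6 to 32.1) and 68.7 CPM (58.3 to 80.4), a ratio of 2.44 (1.97 to 3.01). Kcnn3 was at 72.5 and 149 CPM, a ratio of 2.06 (1.79 to 2.36). Each ratio is below that of the whole class. Pde5a, at 127 and 150 CPM, had a ratio of 1.18 (1.04 to 1.34), and Prkg1 one of 0.887 (0.521 to 1.45).

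The per-cell counts show where the difference lies. Of the Dner state cells thinned to 5000 UMIs, 15.1% of 683 Tom- and 28.7% of 202 Tom+ cells had 2 or more Gucy1a1 UMIs, with at most 10 and 14 in a cell. For Kcnn3 these shares were 7.76% and 17.8%, and for Gucy1b1 2.64% and 6.44%. Cells with no Gucy1a1 UMI were 70.1% and 55.9% of the state.

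The Tom+ over Tom- ratios were smaller where states were drawn with the genes themselves let in. In another clustering the 6 genes, the pathway genes, tdTomato and Cdkn2a were all let in together. A separate state of 85 Tom- and 96 Tom+ cells formed, 176 of them from the Dner state. It had Gucy1a1 at 567 and 652 CPM (ratio 1.15, 1.004 to 1.31) and Gucy1b1 at 140 and 141 CPM (1.005, 0.756 to 1.34). Kcnn3 was at 499 and 405 CPM (0.812, 0.694 to 0.950). The part of tdTomato, the reporter used for sorting, in forming this state was not tested. The larger state that remained, with 926 cells of the Dner state, had ratios of 1.29 (1.06 to 1.56) for Gucy1a1, 1.90 (1.31 to 2.70) for Gucy1b1 and 1.12 (0.791 to 1.54) for Kcnn3. States drawn with a gene separate cells by that gene.

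A split that does not use the 6 genes was made by C1qtnf3, a secreted collagen-like protein, after its values had been seen. A C1qtnf3 UMI was found in 14.6% of Tom- against 26.7% of Tom+ cells of the thinned Dner state. In cells with it, Gucy1a1 was at 430 and 571 CPM, a ratio of 1.33 (1.14 to 1.55), Gucy1b1 at 95.8 and 125 CPM (1.31, 0.934 to 1.81), and Kcnn3 at 302 and 246 CPM, a ratio of 0.816 (0.657 to 1.01). In cells without it, Gucy1a1 was at 80.7 and 170.2 CPM, a ratio of 2.11 (1.80 to 2.46), Gucy1b1 at 16.5 and 48.7 CPM (2.95, 2.15 to 4.03), and Kcnn3 at 35.5 and 100.2 CPM (2.82, 2.28 to 3.50). In both libraries each of the 3 genes had a higher level in cells with C1qtnf3 than in cells without it.

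Among the other states with at least 30 cells in each library, 3 had low levels of the 3 genes in both libraries. In the state led by Ednrb, Iqgap2 and Chodl (1006 and 48 cells) Gucy1a1 was at 19.5 and 11.6 CPM, a ratio of 0.593 (0.215 to 1.31) that rests on 6 Tom+ UMIs. In the state led by Lsamp, Cobl and Ptgfr (837 and 136 cells) it was at 12.3 and 12.6 CPM, a ratio of 1.02 (0.586 to 1.68), and Kcnn3 was at 7.73 and 8.39 CPM. The Fam167a state (488 and 59 cells) had Gucy1a1 at 7.37 and 7.75 CPM, a ratio of 1.05 (0.370 to 2.44). None of these 3 ratios has an interval above or below 1. Prkg1 was at 10.04 and 21.2 CPM in the Ednrb state, a ratio of 2.11 (1.02 to 3.94) from 103 and 11 UMIs. In Tom- Pde5a was highest in the Lsamp state, at 196 CPM (187 to 204) in Tom- against 153 CPM (133 to 174) in Tom+, a ratio of 0.780 (0.675 to 0.897), followed by the Ednrb state, at 181 and 173 CPM. In Tom+ the Gm26917 state had the highest level, 195 CPM (121 to 299) from 21 UMIs.

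The state led by Cd74, H2-Eb1 and H2-Aa (175 and 61 cells), genes of antigen presentation, resembled mesothelial-like cells in holding Gucy1a1 with little Gucy1b1. Gucy1a1 was at 92.6 CPM (82.3 to 104) in Tom- against 64.9 CPM (49.0 to 84.3) in Tom+, a ratio of 0.701 (0.517 to 0.935). Gucy1b1 gave 6 and 1 UMIs, so that there were 48.8 Gucy1a1 UMIs (22.2 to 134) for each Gucy1b1 UMI in Tom-, against 4.54 (3.92 to 5.27) in the Dner state. Pde5a was also low there, at 13.6 and 8.11 CPM.

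The states led by Osr2 (250 and 71 cells) and Gm26917 (115 and 48 cells) were shallow, with median depths of 2589.5 and 1228 UMIs and of 2475 and 1880.5 UMIs, and 175 Tom- and 71 Tom+ cells of the Osr2 state had a shared barcode. Gucy1a1 in them rested on 28 and 5 and on 12 and 9 UMIs. In the Gm26917 state its ratio was 2.30 (0.855 to 5.94) and that of Kcnn3 2.51 (0.918 to 6.65), near those of the Dner state but with intervals that hold 1. A state led by Hmcn2, Cilp and Sfrp4, kept out of the class because a pericyte marker (Abcc9) stood among its leading genes, had Gucy1a1 at 58.6 and 94.6 CPM, a ratio of 1.62 (1.30 to 2.00). A state led by Gfra1, Actg2 and Slc14a1, also kept out, had 902 Tom- and 23 Tom+ cells, with Gucy1a1 at 40.6 CPM in Tom- and only 3 UMIs in Tom+.

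**Figure D2:**
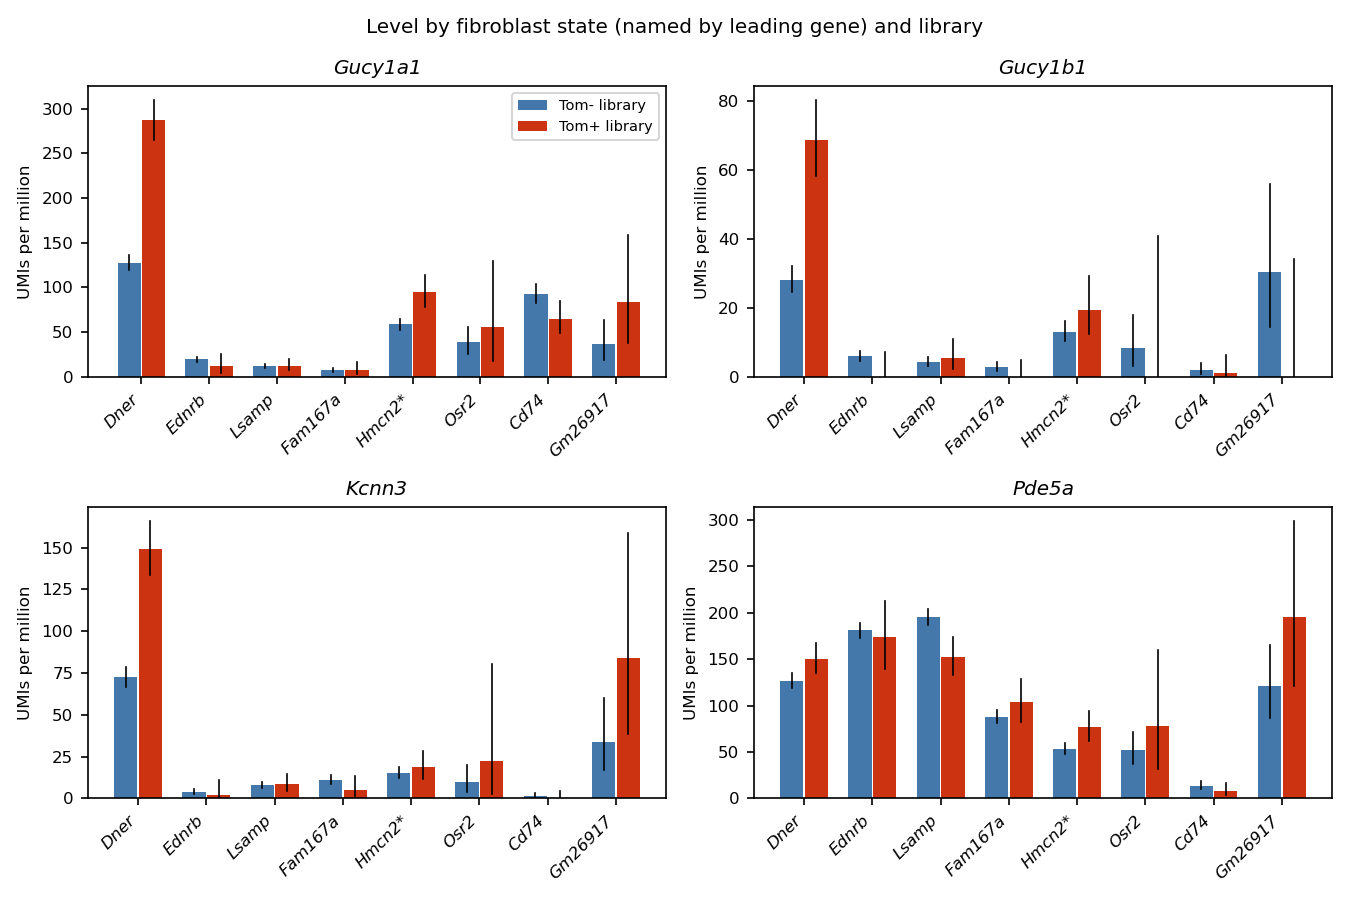
Level in CPM of Gucy1a1, Gucy1b1, Kcnn3 and Pde5a in each fibroblast state with at least 30 cells in both libraries, named by its leading gene, in Tom- (blue) and Tom+ (red). Vertical lines are exact Poisson 95% intervals and an asterisk marks a state kept out of the class. Gucy1a1 and Kcnn3 are highest in the Dner state in both libraries and Gucy1b1 in Tom+, where the shallow Gm26917 state has a Tom- Gucy1b1 level of 30.4 CPM from 10 UMIs, whereas Pde5a is at 126.9 CPM in the Dner state and 196 CPM in the Lsamp state of Tom-.

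The class difference was split into the mix of states and the level within them, for the states drawn without the genes described here. With each state at its Tom- level and the states mixed as in Tom+, Gucy1a1 would stand at 64.5 CPM, 1.70 times its Tom- level, and the Tom+ level was 1.82 times that. For Gucy1b1 these factors were 1.52 and 2.01, and for Kcnn3 1.61 and 1.90. For Prkg1 they were 0.929 and 1.004, and for Pde5a 0.911 and 1.02. A mean over the 7 states that gives each the same weight was 0.25 on the log2 scale for Gucy1a1 and 0.09 for Kcnn3. For Gucy1b1 that mean was -1.68, but 4 of the 7 states had 0 Tom+ UMIs, and with 3 UMIs in their place it was 0.46. Kcnn3 had 1 such state, the Cd74 state with 4 Tom- and 0 Tom+ UMIs. With 3 UMIs in place of 0 its mean was 0.40. The factors belong to this drawing of the states, and how they depend on it was not tested. Within-state ratios were smaller when the genes themselves were let into the clustering, which separates cells by their levels of these genes. In the Dner state, drawn without them, the ratios were 2.24 for Gucy1a1, 2.44 for Gucy1b1 and 2.06 for Kcnn3. In the larger state that remained when the genes were let into the clustering, they were 1.29, 1.90 and 1.12.

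**Figure D3:**
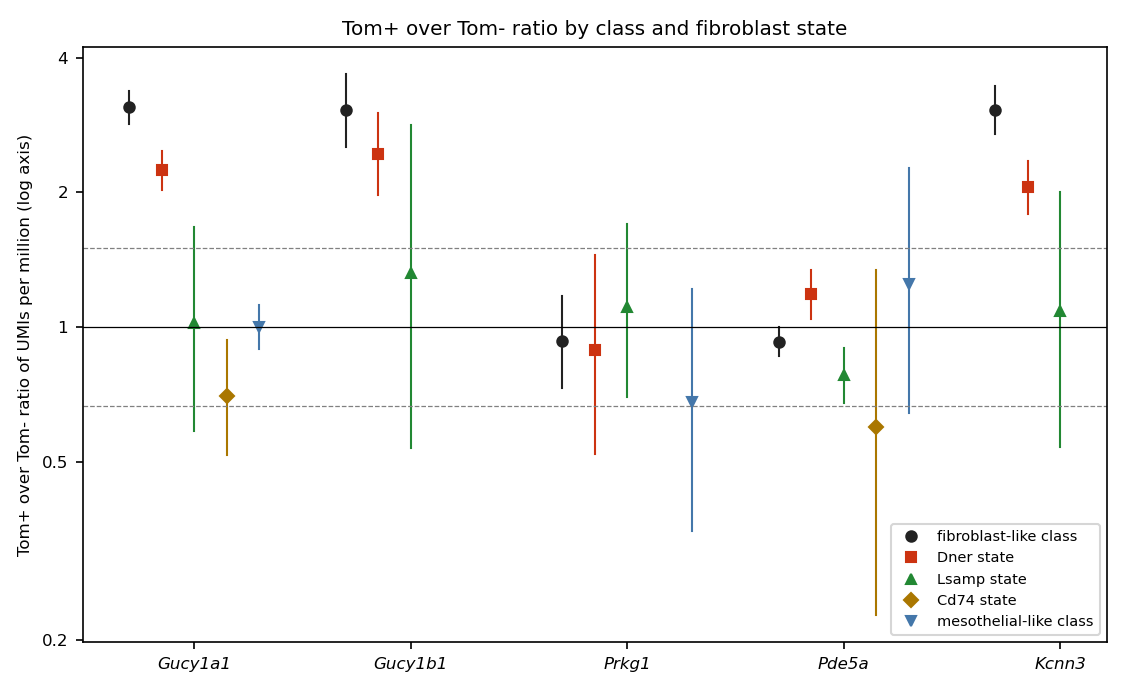
Tom+ over Tom- ratio of CPM (log axis) for 5 genes in the fibroblast-like class, 3 of its states and the mesothelial-like class, with exact conditional 95% intervals as vertical lines. Points with under 5 UMIs in a library are left out, and dashed lines mark 1.5 times in either direction. Gucy1a1, Gucy1b1 and Kcnn3 lie above 2 in the class and in the Dner state. In the Lsamp state the intervals of these 3 genes hold 1, whereas that of Pde5a (0.675 to 0.897) lies below 1.

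The 3 genes were found in the same fibroblast-like cells more often than the product of their shares gives. In thinned Tom- cells 1.69% (1.28 to 2.18) held a UMI of both Gucy1a1 and Gucy1b1, where the product is 0.381%, a factor of 4.43. In Tom+ cells it was 7.97% (5.70 to 10.8) against 2.49%, a factor of 3.20. Gucy1a1 and Kcnn3 were together in 2.62% (2.10 to 3.22) of Tom- against 10.9% (8.25 to 14.05) of Tom+ cells, factors of 3.83 and 2.83. Put as shares, 49.1% of Tom- against 74.5% of Tom+ cells with Gucy1b1 also had Gucy1a1, against 9.73% and 17.1% of cells without it. Of cells with Kcnn3, 42.4% and 65.8% had Gucy1a1.

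Co-detection of Gucy1a1 with the phosphodiesterase was close to the product over the class, and that with the kinase rested on few cells. Gucy1a1 and Pde5a were together in 5.06% (4.34 to 5.86) of Tom- against 11.3% (8.62 to 14.5) of Tom+ cells, factors of 1.03 and 1.06. Gucy1a1 and Prkg1 shared 16 Tom- and 3 Tom+ cells, factors of 0.744 and 0.477, and the intervals of both shares (0.276% to 0.781% and 0.130% to 1.83%) hold the product. Within the Dner state the factor for Gucy1a1 and Gucy1b1 was 2.36 in Tom- and 1.80 in Tom+, and for Gucy1a1 and Kcnn3 2.20 and 1.62, so these pairs stood above the product inside that state too. Gucy1a1 and Pde5a had factors of 1.34 and 1.08 there, and in Tom- their shared 16.1% (13.4 to 19.1) lay above the product of 11.98%. Over the class, Gucy1b1 and Prkg1 had factors of 1.65 from 11 Tom- cells and 0.693 from 2 Tom+ cells. Cells of 1 library are not replicates, and these intervals too cover counting error only.

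**Figure D4:**
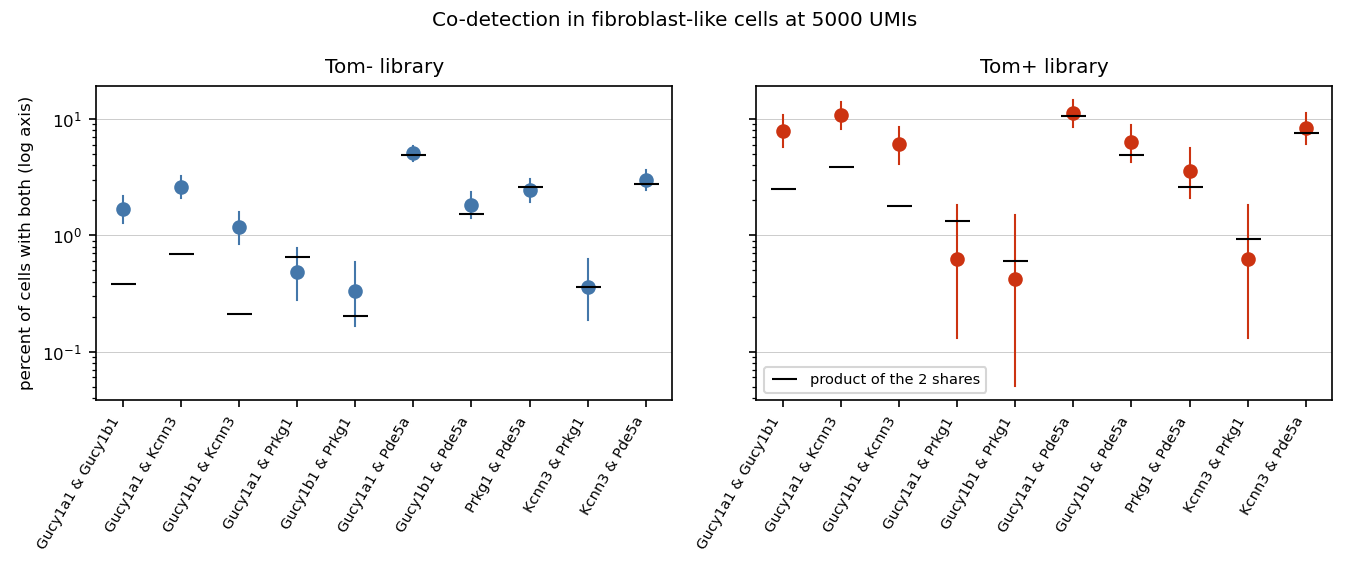
Percent of fibroblast-like cells with a UMI of both genes of a pair (points, log axis) after thinning to 5000 UMIs, with exact binomial 95% intervals, beside the product of the 2 single shares (black dashes), in Tom- (left) and Tom+ (right). The 3 pairs among Gucy1a1, Gucy1b1 and Kcnn3 lie above the product in both libraries.

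The remaining genes of the pathway did not share the difference as a group. Of 79 other pathway genes in the files 33 were measured in fibroblast-like cells, of which 2 were higher, 1 was lower and 30 lay between, with a median log2 ratio of 0.01 against -0.00297 over all measured genes. The background of 1.54% higher and 1.46% lower stands beside these counts. Both higher genes were on the list of potassium channels and their purinergic input. Adcyap1r1, the receptor of the neuropeptide PACAP, was at 13.6 and 30.2 CPM, a ratio of 2.22 (1.88 to 2.62), and was also among the leading genes of the Dner state. Enpp1, an ectoenzyme that cleaves extracellular ATP, was at 13.2 and 27.4 CPM, a ratio of 2.08 (1.74 to 2.46).

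Among genes that supply or limit nitric oxide, 11 of 21 were measured and 0 were higher or lower. Cygb, a globin that removes nitric oxide, was at 973 and 981 CPM, and Ddah2, which breaks down an inhibitor of the synthases, at 254 and 241 CPM. The membrane receptors that make cGMP from natriuretic peptides, Npr1 and Npr2, had ratios of 1.01 (0.888 to 1.15) and 1.06 (0.914 to 1.22), and the other alpha subunit gene, Gucy1a2, was too low to be measured, with 198 and 35 UMIs (1.27, 0.859 to 1.82). Among kinase targets 4 of 13 were measured, with Itpr1, a calcium release channel of the endoplasmic reticulum, at 29.2 and 39.8 CPM (1.37, 1.19 to 1.56) and Vasp, an actin regulator, at 31.9 and 26.3 CPM (0.824, 0.698 to 0.967).

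Of 12 other genes for breakdown and export of cGMP, 7 were measured. The exporter gene Abcc4 was the 1 lower gene, at 12.7 and 7.87 CPM (0.622, 0.456 to 0.831). The phosphodiesterase genes Pde1a, Pde3a and Pde9a had ratios of 1.19, 1.18 and 1.20. On the purinergic side, Entpd2, an ectoenzyme that removes ATP, was at 390 and 447 CPM (1.15, 1.10 to 1.19) and Entpd1 at 33.3 and 23.1 CPM (0.695, 0.582 to 0.823). The purinergic receptor gene P2ry1 had 97 and 23 UMIs, too low a level to be measured.

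**Figure D5:**
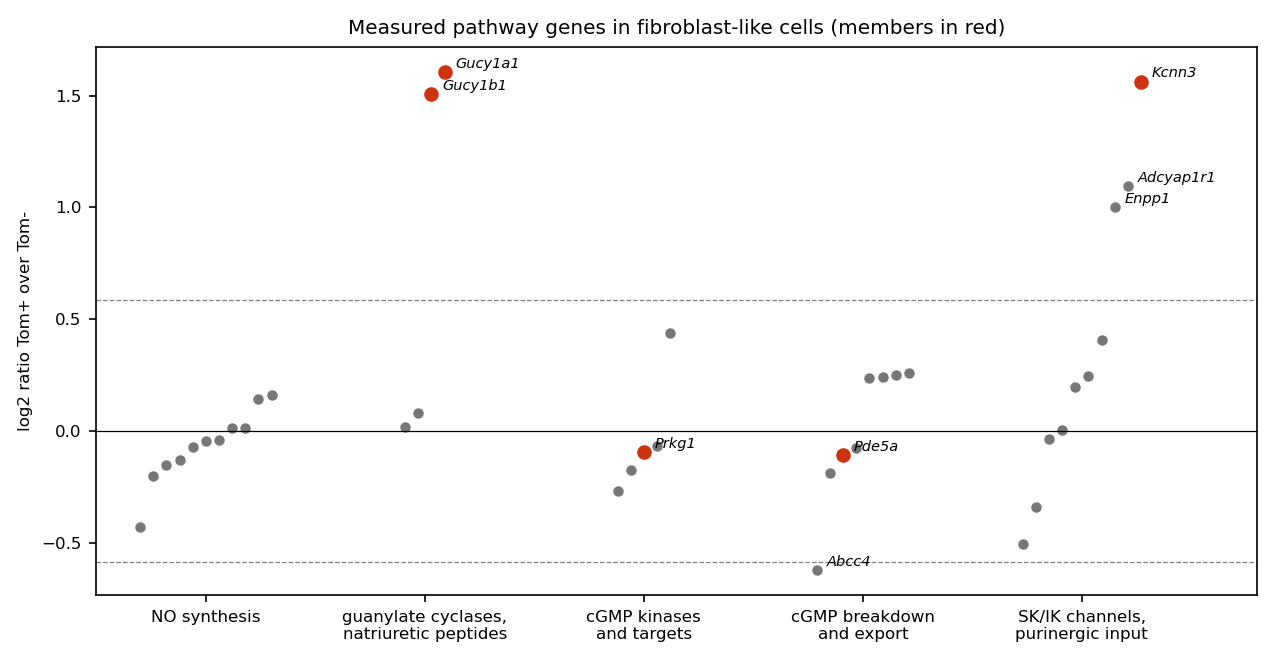
Log2 ratio of Tom+ over Tom- (with 1 CPM added) for each measured pathway gene in fibroblast-like cells, by role, with the genes described here in red and dashed lines at 1.5 times in either direction. Gucy1a1, Kcnn3 and Gucy1b1 lie between 1.51 and 1.61, the other measured genes between -0.62 and 1.10.

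Across 25 clusters with at least 50 cells, the 6 genes were compared by their levels. The clusters share 2 libraries and differ in depth, so the Pearson r of log2(CPM + 1) is a description. Gucy1a1 and Gucy1b1 had an r of 0.76 with each other. Prkg1 had 0.60 with Gucy1a1 and 0.61 with Gucy1b1, and Kcnn3 0.54 with Gucy1b1 and 0.24 with Gucy1a1. Pde5a and Nos3 ran opposite, with an r of -0.47. Of 6373 genes compared, those most like Nos3 were Scarf1 (0.975), Wscd1 (0.974), the endothelial receptor gene Tie1 (0.968), Arap3 and Tal1. Prkg1 was nearest to Lamb2 (0.933) and Zeb1 (0.908), Pde5a to Gpc6 (0.888) and Snx18 (0.813), Gucy1a1 to Ccdc141 (0.844) and Pkia (0.828), Gucy1b1 to Foxc2 (0.830) and Heyl (0.824), and Kcnn3 to Dennd4a (0.808).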

How the data were processed

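The authors deposited 1 matrix of raw UMI counts per gene and barcode for each library, made with the 10x Genomics 3′ kit v3.1 per the labels' protocols. Cell Ranger 7.0.0 and the mm10 build were used, per the submitters' processing notes, while the file headers carry software version 3.0.2. The count of UMIs per cell is a count of captured transcripts, and the step that selected barcodes is not given in the sources used here. The members, lists and classes were chosen with earlier results of these data known.

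Cells with at least 1000 UMIs, 500 genes and under 15% mitochondrial UMIs were kept. Scrublet in scanpy 1.11.5 marked 690 Tom- and 10 Tom+ cells (0.528% of 1893) as doublets, which were left out. Cells were clustered without integration (2000 variable genes, 30 components, 15 neighbours, Leiden resolution 1). Naming whole clusters, the plan fixed first, left stromal clusters unnamed, so a class is here the cells whose largest share of detected markers (at least 3, no tie) came from 1 fixed list, within clusters where most gated cells passed the same gate. Umbrella and basal urothelial cells were joined, as were smooth muscle and pericyte cells (mural-like). Of fibroblast-like cells 274 Tom- (6.76%) and 19 Tom+ (2.60%) held within 2 markers as many of another class. States came from resolution 0.5, and those with more markers of another class than of fibroblasts among their 10 leading genes were kept out of the class (25.2% of Tom- and 14.8% of Tom+ gated cells).

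UMIs were summed per class and library and scaled to CPM. Ratios have exact conditional binomial, sums exact Poisson and shares exact Clopper-Pearson 95% intervals. The calculation was tested on simulated data. The genes named are the 6 genes, pathway-list genes, the 3 leading genes of states, markers, and per gene those with the highest r. C1qtnf3, Cxcl12, C7 and the leading genes of endothelial clusters were named after their values were seen. Alternatives used edgeR 4.0.16 (TMM) and DESeq2 1.42.0 (median ratio), other filters, classes, states, depths and pseudocounts.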

Additional observations from a re-analysis of the deposited data

Results flagged for a closer look

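Gucy1a1, Gucy1b1 and Kcnn3 were flagged because their Tom+ over Tom- ratios went in opposite directions in different classes. Gucy1a1 had a ratio of 3.10 in fibroblast-like cells and, from 41 Tom+ UMIs in only 13 cells, 0.689 in endothelial-like cells of blood vessels. Within the latter, its ratio was 0.515 (0.324 to 0.793) in the cluster led by Selp (252 Tom- and 122 Tom+ cells). It was 1.16 (0.573 to 2.15) in that led by Esm1 (280 and 31 cells) and 0.908 (0.0955 to 4.39) in that led by Timp4 (131 and 16 cells). The Esm1 and Timp4 intervals hold 1, so they do not settle the direction in those clusters. The libraries mixed the clusters differently. Gucy1b1 had a ratio of 3.06 in fibroblast-like cells, and in endothelial-like cells of blood vessels it had 26 Tom- UMIs and 0 Tom+ UMIs. With 3 UMIs in place of 0 over the class the ratio was 0.361 (2.77-fold lower in Tom+), and the exact 95% interval reached 0.477. Of the 26 UMIs 19 came from the Esm1 cluster, where the interval reached 1.53. Kcnn3 had a ratio of 3.06 in fibroblast-like and 1.37 in lymphatic endothelial-like cells, and 36 and 0 UMIs in endothelial-like cells of blood vessels. With 3 UMIs in place of 0 the ratio was 0.261 (3.84-fold lower in Tom+), and the exact interval reached 0.337. Of the 36 UMIs 30 came from the Esm1 cluster, where the interval reached 0.934. The differences between classes were not tested, and the part of the mix of clusters in them was not tested. In that endothelial class 8.87% of all measured genes were lower by 1.5 times. Gucy1b1 (5.11 CPM in Tom-) and Kcnn3 (7.07 CPM in Tom-) were there below the 10 CPM needed to be measured. Gucy1a1 was measured but was not lower by 1.5 times, with a log2 ratio of -0.519.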

How the results depend on the processing

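Gucy1a1, Gucy1b1 and Kcnn3 in fibroblast-like cells stayed higher in Tom+ by 1.5 times or more under each of 18 alternatives other than the mean over states, with log2 ratios of 1.41 to 1.87, 1.20 to 1.67 and 1.33 to 1.77, and of 210 values recomputed in all 163 stayed within counting error or, for counts, within 1.5 times. Log2 ratios that moved were, with the marker gate alone, Gucy1a1 1.41 and Gucy1b1 1.21; with the class named from clusters, Gucy1a1 1.44, Kcnn3 1.37 and Pde5a 0.022; with libraries clustered apart, Kcnn3 1.33 and Pde5a 0.16; with all set-apart states counted in, Gucy1a1 1.43; with equal weight per cell, Gucy1a1 1.74 and Pde5a 0.0013; with doublets kept, Kcnn3 1.77 and Pde5a 0.047; thinned to 2000 UMIs, Gucy1a1 1.87, Kcnn3 1.35 and Prkg1 0.38; and with 5 CPM added, Gucy1b1 1.20. The equal-weight mean over states was 0.25 for Gucy1a1, 0.091 for Kcnn3 and 0.088 for Pde5a, and reversed to -1.68 for Gucy1b1, where 4 of 7 states had 0 Tom+ UMIs. With 3 UMIs in place of 0 it was 0.46 for Gucy1b1 and 0.40 for Kcnn3, which had 1 such state. Within the Dner state, letting the 6 genes, the pathway genes, tdTomato and Cdkn2a into the clustering gave 0.37 for Gucy1a1, 0.88 for Gucy1b1 and 0.15 for Kcnn3. The 138 higher genes became 226 with the gate alone, 276 with equal weight per cell, 416 when thinned to 2000 UMIs, 444 with no filter on low values and 39 with a filter of 50 CPM. The 131 lower genes became 239, 408, 481 and 35 with the gate alone, thinning, no filter and 50 CPM, and 302 with doublets kept, 82 with the class named from clusters, 243 with Car3 states counted in and 208 with all set-apart states counted in. The Tom- co-detection factor of Gucy1a1 and Gucy1b1 was 5.92 when thinned to 2000 UMIs and 3.15 at full depth. At full depth, where Tom+ cells are shallower, Tom+ over Tom- ratios of the shares of cells with a UMI were 1.53 for Gucy1a1, 1.97 for Gucy1b1, 1.75 for Kcnn3 and 0.835 for Pde5a. The gate alone gave Tom- mural-like levels of 326 CPM for Gucy1a1, 252 CPM for Pde5a and 57.4 CPM for Prkg1, and thinning to 2000 UMIs gave Tom- lymphatic endothelial-like levels of 325 CPM for Gucy1b1 and 166 CPM for Kcnn3. The cause of these changes was not tested, except that filters change how many genes are counted. Counting in all set-apart states, and leaving out shallow states, were chosen after seeing the data. TMM and median-ratio scaling moved no median of all genes by over 0.1. No paired analysis was possible because each group is 1 library, and for the same reason no replicate could be left out.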
